A study of Homo sapiens with 3 samples.

Results

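The HOX cluster genes were the 39 genes, of 36601 in the count files, whose symbol is HOX followed by A, B, C or D and a number. HOXA on chromosome 7 held 11 of them, HOXB on chromosome 17 held 10, HOXC on chromosome 12 held 9 and HOXD on chromosome 2 held 9. The rule uses the symbol and no measured value. They were measured in OVCAR3, a long-used human line that models high-grade serous ovarian cancer (HGSOC), by droplet single-cell RNA sequencing with a kit that reads the 3′ end of transcripts. The DMSO group received the solvent, the RAC1i group 50 μM NSC23766, which blocks activation of the small GTPase RAC1, and the Combo group 50 μM NSC23766 with 5 μM GSK126, which blocks the histone methyltransferase EZH2. All 3 groups were cultures of this 1 line in medium with DMSO, the solvent of both inhibitors, and were treated for 48 hours. Cells treated with EZH2i alone were not analysed here.

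HOX genes encode homeodomain transcription factors that give cells their position along the body axis. They stand in 4 clusters in which genes of the same number form a paralog group, with low numbers acting towards the head and high numbers towards the tail, so the groups are called here anterior (1 to 3), central (4 to 8) and posterior (9 to 13). In the female reproductive tract HOXA9, HOXA10, HOXA11 and HOXA13 pattern the oviduct, uterus, cervix and upper vagina. Polycomb complexes, of which EZH2 is a part, keep unused HOX clusters silent through methylation of histone H3 at lysine 27, while trithorax proteins and retinoic acid act to open them.

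Each group was 1 library, so there was no replicate, no test between groups and no p-value. Kept cells numbered 7531 for DMSO, 10215 for RAC1i and 8239 for Combo, and held 199063947, 234969742 and 212792113 unique molecular identifiers (UMIs), which mark captured molecules. The median depth per cell was 26750, 20989 and 24953 UMIs, and the median mitochondrial share was 5.60%, 1.66% and 1.58%. A level is the share of a library's UMIs, over all kept cells, that belong to a gene, times 1e6 (CPM). Values in brackets are exact 95% intervals, which cover counting error and not the spread between cultures. Between 15 and 23 cell barcodes were shared by each pair of libraries and 1 by all 3. The epithelial marker EPCAM stood at 319.7, 274 and 302 CPM in DMSO, RAC1i and Combo, whereas PAX8, the transcription factor of Müllerian epithelium, stood at 355, 54.3 and 47.8 CPM. All 9 epithelial and serous markers were detected in each library, and they summed to 4074, 2154 and 2378 CPM in that order. At least 1.5-fold lower than in DMSO were 6 of the 9 in RAC1i (39.8% of all genes with a mean of at least 1 CPM) and 6 in Combo (38.3%), and 0 were higher. Their part in the HOX levels was not tested. The leukocyte gene CD3E had at most 0.00502 CPM in any library, and 8 genes of leukocytes, endothelium and fibroblasts together stood at 7.56, 8.39 and 8.41 CPM, most of it COL1A1. Of these, the endothelial gene PECAM1 stood at 0.472, 1.32 and 1.49 CPM, a ratio of 2.79 for RAC1i and 3.14 for Combo, from 94, 310 and 316 UMIs.

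OVCAR3 cells with RAC1i or Combo carried far more HOXC transcripts than DMSO treated cells, while the sum of the HOXA genes over all cells stayed close to its DMSO level. The 9 HOXC genes summed to 18.1 CPM (17.5 to 18.7) in DMSO, 201 CPM (199 to 203) in RAC1i and 166 CPM (164 to 168) in Combo. That is a ratio to DMSO of 11.1 (10.7 to 11.5) for RAC1i and 9.19 (8.88 to 9.51) for Combo. HOXA summed to 251, 260.3 and 222 CPM in DMSO, RAC1i and Combo, HOXB to 50.3, 78.3 and 85.5 CPM and HOXD to 5.24, 5.98 and 6.32 CPM. Of all HOX UMIs, HOXA took 77.3% in DMSO but 47.7% in RAC1i and 46.3% in Combo, and HOXC took 5.57%, 36.8% and 34.6%. The 39 genes together held 324, 545 and 480.4 CPM in DMSO, RAC1i and Combo.

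**Figure D1:**
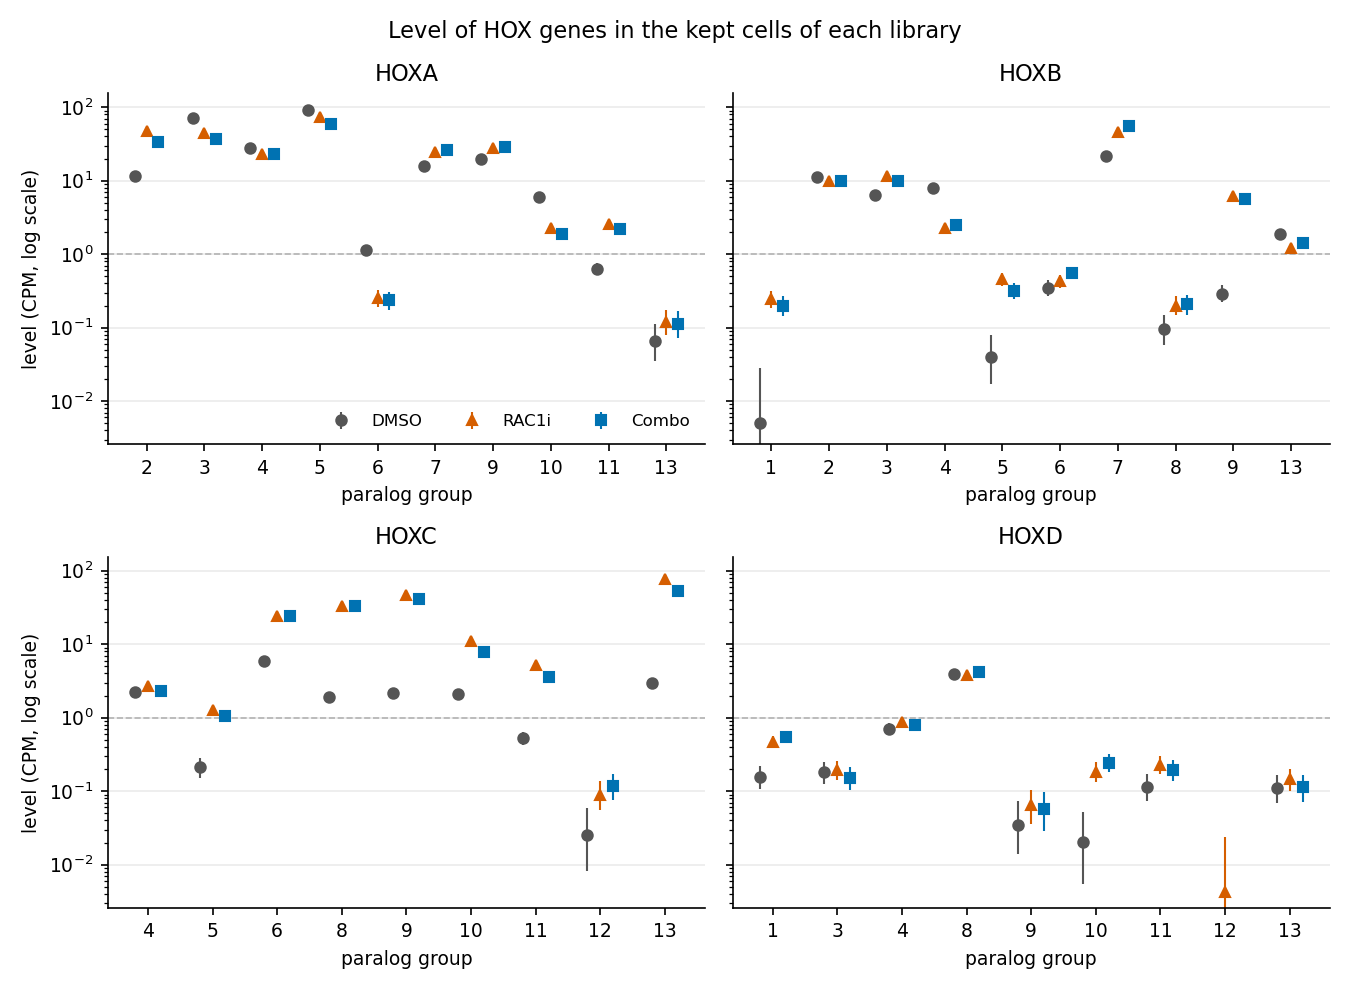
Level of HOX genes in CPM on a log axis, by cluster and paralog number, in the DMSO, RAC1i and Combo libraries, with exact 95% intervals for counting error. Points at 0 UMIs (HOXD12 in DMSO and Combo) are not drawn and the lower ends of the intervals of HOXB1 in DMSO and HOXD12 in RAC1i lie below the axis, and in the HOXC panel the RAC1i and Combo points of HOXC6 and of HOXC8 to HOXC11 and HOXC13 lie above the DMSO point.

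HOXC13, which drives keratin genes of hair and nail, had the largest ratio of RAC1i to DMSO among the 23 HOX genes with a mean of at least 1 CPM over the 3 libraries, and in Combo the ratios of HOXB9 and HOXC9 were above it. It lies at chr12:53938831-53946544, plus strand, on GRCh38. DMSO treated cells held 2.98 CPM (2.75 to 3.23) of it, RAC1i treated cells 76.7 CPM (75.6 to 77.9) and Combo treated cells 53.1 CPM (52.1 to 54.1), from 594, 18033 and 11293 UMIs. DMSO was low and RAC1i was the highest, and none of the 3 intervals overlapped. The ratio to DMSO was 25.7 (23.7 to 28.0) for RAC1i and 17.8 (16.4 to 19.3) for Combo. HOXC9 and HOXC8, which specify thoracic segments, lie next to each other on the plus strand, at chr12:53994895-54003337 and chr12:54008985-54012769. HOXC9 stood at 2.15, 47.1 and 40.8 CPM in DMSO, RAC1i and Combo, a ratio of 22.0 (19.9 to 24.3) for RAC1i and 19.0 (17.2 to 21.0) for Combo. HOXC8 stood at 1.91, 32.8 and 33.1 CPM in DMSO, RAC1i and Combo, a ratio of 17.1 (15.5 to 19.0) and 17.3 (15.6 to 19.2). In HOXC9 the RAC1i level was above the Combo level, and in HOXC8 the 2 treated libraries had overlapping intervals (32.1 to 33.5 and 32.4 to 33.9 CPM).

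The other posterior HOXC genes were also higher in the treated libraries. HOXC10, a gene of lumbar motor neurons and hindlimb, stood at 2.10, 11.1 and 7.82 CPM in DMSO, RAC1i and Combo (RAC1i to DMSO ratio 5.28 (4.76 to 5.87)). HOXC11 stood at 0.527, 5.15 and 3.53 CPM in DMSO, RAC1i and Combo (ratio 9.75 (7.99 to 12.0)), and its DMSO level lay below 1 CPM. In 3 equal parts of the cells of each library by UMIs, from shallow to deep, its RAC1i ratio was 21.5, 12.5 and 7.20. The first of these rests on 8 UMIs in DMSO. HOXC12 was near the limit of detection in all 3 libraries, with 5, 21 and 25 UMIs for DMSO, RAC1i and Combo. Among the central genes, HOXC6 stood at 5.90, 23.9 and 24.3 CPM in DMSO, RAC1i and Combo, with a ratio of 4.04 (3.80 to 4.31) for RAC1i and 4.12 (3.87 to 4.39) for Combo. In the shallowest of the 3 parts the ratios of HOXC6 were 6.88 and 7.30. HOXC5 stood at 0.211, 1.26 and 1.06 CPM in DMSO, RAC1i and Combo from 42, 295 and 225 UMIs, below a mean of 1 CPM, with ratio intervals of 4.30 to 8.43 for RAC1i and 3.59 to 7.14 for Combo. HOXC4 differed least in the cluster and stood at 2.27, 2.70 and 2.31 CPM in DMSO, RAC1i and Combo, with a ratio of 1.19 (1.05 to 1.35) for RAC1i and 1.02 (0.892 to 1.16) for Combo, and the Combo interval included 1. The log2 ratio of HOXC4 for RAC1i, 0.25 here, was 0.64 by the mean over cells and 0.88 after thinning to 2500 UMIs per cell, past 1.5-fold. In GENCODE 44, HOXC4 shares 17.5% of its exon bases with HOXC6, HOXC6 shares 16.1% with HOXC4 and HOXC9, and HOXC9 shares 4.38% with HOXC6. The levels of these 3 genes are therefore less certain. HOXC8, HOXC10, HOXC11 and HOXC13 share no exon base with another HOX gene on their strand.

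By position, the 5 posterior HOXC genes summed to 7.78, 140.2 and 105 CPM in DMSO, RAC1i and Combo, a ratio of 18.0 (17.1 to 19.0) for RAC1i and 13.5 (12.9 to 14.3) for Combo. The 4 central HOXC genes summed to 10.3, 60.6 and 60.8 CPM in DMSO, RAC1i and Combo, a ratio of 5.89 (5.62 to 6.17) and 5.91 (5.64 to 6.19). The posterior ratios were larger than the central ones in both treated libraries, with intervals that did not overlap. HOXC13 and HOXC9 carried most of the posterior sum, and single genes did not follow this order, since the central gene HOXC8 had larger ratios than the posterior genes HOXC10, HOXC11 and HOXC12. HOXC holds no anterior gene.

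HOXB genes differed from DMSO in both directions. HOXB9, a posterior gene of the thorax, stood at 0.291, 6.12 and 5.56 CPM in DMSO, RAC1i and Combo from 58, 1437 and 1184 UMIs, which gave a ratio of 21.0 (16.1 to 27.8) for RAC1i and 19.1 (14.7 to 25.3) for Combo. In 3 equal parts of the cells from shallow to deep, the RAC1i ratio was 78.0, 35.2 and 12.2. The gene was low in DMSO and high in both treated libraries. HOXB7 stood at 22.0, 46.1 and 55.1 CPM in DMSO, RAC1i and Combo and took the most UMIs of the cluster, with ratios of 2.10 (2.02 to 2.17) and 2.51 (2.43 to 2.60). HOXB3 stood at 6.39, 11.4 and 9.86 CPM in DMSO, RAC1i and Combo, with ratios of 1.78 and 1.54. HOXB4, known for expanding blood stem cells, went the other way and stood at 8.002, 2.29 and 2.50 CPM in DMSO, RAC1i and Combo, 3.50-fold lower in RAC1i and 3.19-fold lower in Combo than in DMSO. In the shallowest of the 3 parts its ratios were 0.553 for RAC1i and 0.496 for Combo, against 0.286 and 0.313 over all cells. HOXB13, a gene of prostate and tail region, stood at 1.90, 1.23 and 1.41 CPM in DMSO, RAC1i and Combo and was 1.54-fold lower in RAC1i and 1.35-fold lower in Combo. Its log2 ratio for Combo, −0.43 here, was −0.77 by the mean over cells and −0.95 after thinning to 2500 UMIs per cell. HOXB2 stood at 11.3, 9.89 and 9.79 CPM in DMSO, RAC1i and Combo, with ratios of 0.877 and 0.868 over all cells. In the shallowest of the 3 parts the ratios of HOXB2 were 0.645 for RAC1i and 0.478 for Combo. HOXB3 and HOXB4 lie on the minus strand of chromosome 17 and share exon bases (2.20% of those of HOXB4), although their ratios pointed in opposite directions.

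Within HOXA, genes that were at least 1.5-fold higher in RAC1i than in DMSO, as were 23.8% of all genes with a mean of at least 1 CPM, stood beside others that were lower, so that the sum of the cluster hid differences of both signs. HOXA2, which patterns the hindbrain and a pharyngeal arch, stood at 11.5, 47.5 and 33.4 CPM in DMSO, RAC1i and Combo, with a ratio of 4.11 (3.93 to 4.30) for RAC1i and 2.90 (2.76 to 3.04) for Combo, and 7.17 for RAC1i in the shallowest of 3 equal parts of the cells by UMIs. HOXA11, a gene of the developing uterus, stood at 0.628, 2.54 and 2.18 CPM in DMSO, RAC1i and Combo from 125, 597 and 464 UMIs, with ratios of 4.05 (3.33 to 4.95) and 3.47 (2.84 to 4.27). DMSO was the low library for both genes and RAC1i the high one. HOXA7 stood at 15.9, 24.6 and 26.4 CPM in DMSO, RAC1i and Combo (ratios 1.54 and 1.66). HOXA9 stood at 20.04, 27.6 and 28.5 CPM in DMSO, RAC1i and Combo, with ratios of 1.38 and 1.42 that lay under 1.5. By the mean over cells its log2 ratios, 0.46 and 0.51 here, were 0.68 and 0.67, past that limit.

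HOXA10, a gene of the uterus, was lower in both treated libraries, at 6.03, 2.29 and 1.89 CPM in DMSO, RAC1i and Combo, or 2.63-fold lower in RAC1i and 3.18-fold lower in Combo. HOXA3, needed for thymus and parathyroid, stood at 70.7, 44.5 and 36.7 CPM in DMSO, RAC1i and Combo, 1.59-fold and 1.93-fold lower. HOXA5, which acts in lung and the cervical spine, took more UMIs than any other HOX gene in DMSO and stood at 92.0, 73.9 and 59.8 CPM in DMSO, RAC1i and Combo, 1.24-fold and 1.54-fold lower. For HOXA3, HOXA5 and HOXA10 the levels over all cells ran from DMSO through RAC1i to Combo without overlap of the intervals, but in the shallowest of 3 equal parts of the cells by UMIs HOXA5 was higher in RAC1i than in DMSO, with a ratio of 1.26. HOXA4 stood at 27.5, 23.0 and 23.1 CPM in DMSO, RAC1i and Combo and was 1.19-fold lower in RAC1i. HOXA6 lay below a mean of 1 CPM, at 1.15, 0.251 and 0.235 CPM in DMSO, RAC1i and Combo from 229, 59 and 50 UMIs, and was 4.58-fold lower in RAC1i and 4.90-fold lower in Combo. HOXA13 had 13, 28 and 24 UMIs.

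Promoter windows in the RefSeq table used here (GRCh38.p14, 250 bases before to 50 after a start, 35116 windows of all genes) covered 20 of the 39 HOX genes with 27 windows, and HOXC4 and HOXC5 had the same window. Genes with no entry included HOXA5, HOXB2 to HOXB9, HOXB13, HOXC6, HOXC8 to HOXC13 and HOXD9. From HOXA, 3 genes with large ratios are shown because their windows hold no coding or UTR base before the start: HOXA2 and HOXA11, which were higher with RAC1i, and HOXA6, which was lower. The 250 bases before the start are printed 5′ to 3′ on the minus strand with each CG in capitals, for HOXA2 at chr7:27102684-27102933, HOXA11 at chr7:27185233-27185482 and HOXA6 at chr7:27147775-27148024.
HOXA2: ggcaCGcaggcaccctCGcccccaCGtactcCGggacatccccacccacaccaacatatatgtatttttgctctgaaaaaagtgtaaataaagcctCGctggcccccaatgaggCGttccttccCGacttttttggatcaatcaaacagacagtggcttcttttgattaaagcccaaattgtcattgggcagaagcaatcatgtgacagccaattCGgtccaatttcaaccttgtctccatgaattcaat
HOXA11: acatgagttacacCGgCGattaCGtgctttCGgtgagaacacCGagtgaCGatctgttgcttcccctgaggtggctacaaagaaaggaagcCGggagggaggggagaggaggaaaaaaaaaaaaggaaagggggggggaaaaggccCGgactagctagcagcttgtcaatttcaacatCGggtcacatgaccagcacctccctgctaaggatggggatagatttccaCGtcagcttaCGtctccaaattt
HOXA6: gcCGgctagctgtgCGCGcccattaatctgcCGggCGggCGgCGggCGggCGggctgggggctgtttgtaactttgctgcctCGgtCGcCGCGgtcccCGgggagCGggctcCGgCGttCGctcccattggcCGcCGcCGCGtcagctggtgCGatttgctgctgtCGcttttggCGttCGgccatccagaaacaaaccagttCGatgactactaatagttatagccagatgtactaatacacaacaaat
These stretches hold 8 CG in HOXA2, 11 in HOXA11 and 27 in HOXA6. Over whole windows the median was 22 CG in the 27 HOX windows, which ranged from 0 to 44, and 14 in all windows. The TATA box letters TATAAA, on either strand, were in 5 HOX windows (18.5%) and in 11.5% of all windows. The letters TGATTNAT, bound by pairs of PBX and HOX proteins, were in 2 HOX windows, those of HOXA2 and HOXD11 (7.41%), and in 2.82% of all windows. The ends of these sets of letters can overlap. Such matches describe the letters and not use of a site.

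The 9 HOXD genes were scarce in all 3 libraries. HOXD8 passed a mean of 1 CPM and stood at 3.91, 3.83 and 4.22 CPM in DMSO, RAC1i and Combo, with ratios of 0.979 (0.888 to 1.08) and 1.08 (0.978 to 1.19) that included 1. The other 8 lay below 1 CPM in every library. HOXD10 had 4, 43 and 52 UMIs, a RAC1i to DMSO ratio of 9.11 (3.31 to 34.9), and shares 18.2% of its exon bases with HOXD11. HOXD1 had 31, 109 and 115 UMIs and a ratio of 2.98 (1.98 to 4.59). HOXD3, HOXD4, HOXD11 and HOXD13 had between 22 and 205 UMIs in each library, HOXD9 had 7, 15 and 12 UMIs, and HOXD12 had 0, 1 and 0 UMIs. Of the scarce HOXB genes, HOXB1, which sets hindbrain identity, had 1, 57 and 42 UMIs (ratio 48.3 (8.33 to 1940.4) for RAC1i), and HOXB5 had 8, 107 and 67 UMIs (ratio 11.3 (5.55 to 26.9)). HOXB6 had 69, 101 and 117 UMIs and HOXB8 had 19, 47 and 44 UMIs. Of the 16 genes below a mean of 1 CPM, 7 had an interval for RAC1i or Combo over DMSO that lay wholly past 1.5-fold, where 31% of 17755 genes below that mean with a UMI did, namely HOXA6 on the lower side and HOXB1, HOXB5, HOXC5, HOXC12, HOXD1 and HOXD10 on the higher side, HOXC12 in Combo only.

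Counted over the genes that passed a mean of 1 CPM, 13 of 23 HOX genes were at least 1.5-fold higher in RAC1i than in DMSO, where 23.8% of 13641 genes were, and 4 were at least 1.5-fold lower, where 39.8% were. The higher genes included HOXA2, HOXA7, HOXA11, HOXB3, HOXB7, HOXB9, HOXC6, HOXC8, HOXC9, HOXC10, HOXC11 and HOXC13, and the lower ones HOXA3, HOXA10, HOXB4 and HOXB13. HOXA11, HOXB9 and HOXC11 among the higher ones had under 1 CPM in DMSO and passed the minimum through the libraries in which they were high, so the counts are a description. HOXA3, HOXA5, HOXA7, HOXB3 and HOXB13 lay close to 1.5-fold and crossed it in at least 1 comparison under other scalings or weights of cells. For Combo over DMSO the counts were also 13 higher (22.8% of all genes), the same genes, and 4 lower (38.3%), namely HOXA3, HOXA5, HOXA10 and HOXB4. At a limit of 4-fold, chosen after the data were seen, 9 genes were higher in RAC1i (6.29% of all genes) and 6 in Combo (5.73%), of which 6 and 5 were HOXC genes, and none was lower (8.35% and 7.12%). The 2 comparisons share the DMSO library. The median log2 ratio for RAC1i was 0.84 over the 23 HOX genes and 3.29 over 7 HOXC genes, against −0.26 over all 13641, and for Combo it was 0.73 and 2.74 against −0.23. Among the 13641 genes ordered by ratio for RAC1i, HOXC13 took place 173, HOXC9 place 202, HOXB9 place 208 and HOXC8 place 244 from the top. HOXA11, HOXB9 and HOXC11 also enter the 4-fold counts and the medians, and HOXB9 these places, so all of these are a description. The median over the 7 HOXC genes was the value of HOXC11 in both comparisons.

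**Figure D2:**
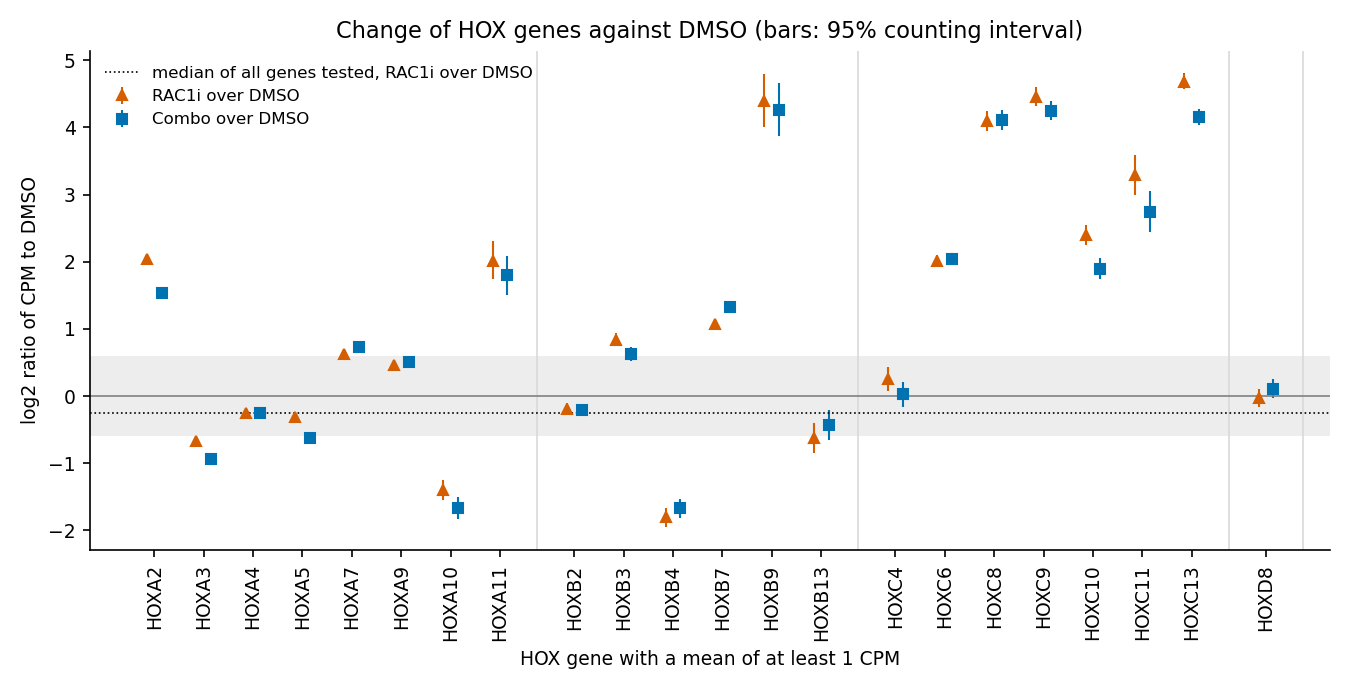
Log2 ratio of CPM to DMSO for HOX genes with a mean of at least 1 CPM, for RAC1i and Combo, with exact 95% intervals for counting error. HOXC13, HOXC9, HOXB9 and HOXC8 lie above 4 for both treatments, and HOXB4 and HOXA10 lie below −1.

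No HOX gene above the minimum differed by 1.5-fold between Combo and RAC1i. These groups differ by design in EZH2i, but they are also separate cultures and libraries. Of 23 genes, 0 were at least 1.5-fold higher in Combo than in RAC1i, where 0.814% of all genes were, and 0 were lower, where 1.14% were. With shares this small, 0 of 23 does not set the HOX genes apart. The median log2 ratio of Combo to RAC1i was −0.21 over the 23 HOX genes and 0.017 over all 13641. By cluster it was −0.27 for HOXA, 0.059 for HOXB and −0.23 for HOXC. The 4 posterior HOXC genes above the minimum were nevertheless lower in Combo, with counting intervals that did not include 1. How many of all genes have such an interval was not counted, so this is a description of these 4 genes only. The ratio of Combo to RAC1i was 0.692 (0.675 to 0.708) for HOXC13, 0.686 (0.625 to 0.752) for HOXC11, 0.705 (0.663 to 0.750) for HOXC10 and 0.865 (0.841 to 0.889) for HOXC9. For the scarce HOXC12 it was 1.31 (0.706 to 2.47), which included 1. For HOXC8 it was 1.01 (0.978 to 1.04) and for HOXC6 1.02 (0.981 to 1.06), which included 1. As sums, the posterior HOXC genes were 1.33-fold lower in Combo than in RAC1i, while the ratio of the central ones was 1.00 (0.980 to 1.03). Outside HOXC, HOXA2 was 1.42-fold lower in Combo than in RAC1i, and HOXB7 had a ratio of 1.20 (1.17 to 1.23). With 1 culture per group, differences of this size cannot be set against the spread between cultures.

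By paralog number, summed over clusters, the ratio of RAC1i to DMSO was 15.5 (14.5 to 16.5) for group 13, with levels of 5.06, 78.2 and 54.7 CPM in DMSO, RAC1i and Combo. HOXC13 gave 594 of the 1007 group 13 UMIs in DMSO, 18033 of 18384 in RAC1i and 11293 of 11640 in Combo. The ratio was 6.22 (5.85 to 6.61) for group 8 and 6.23 (5.46 to 7.13) for group 11, and 3.59 (3.48 to 3.71) for group 9. It was 2.51 for group 2, 3.32 for group 6, 1.87 for group 7 and 1.66 for the posterior group 10, so the ratios did not order by position. Groups 3, 4 and 5, in which HOXA genes took most UMIs, had ratios of 0.726, 0.752 and 0.820. The 16 posterior genes of all clusters summed to 37.0, 181 and 146 CPM in DMSO, RAC1i and Combo, the 15 central ones to 182, 237 and 234 CPM and the 8 anterior ones to 106, 128 and 101 CPM. Paralogs differed in size or direction. In group 9, HOXA9 had a ratio of 1.38 against 21.0 for HOXB9 and 22.0 for HOXC9. In group 10, HOXA10 was 2.63-fold lower and HOXC10 had a ratio of 5.28. In group 13, HOXB13 was 1.54-fold lower and HOXC13 had a ratio of 25.7. In group 4, HOXB4 was 3.50-fold lower, HOXA4 1.19-fold lower, and HOXC4 had a ratio of 1.19.

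Noncoding RNAs inside HOXC also stood at least 1.5-fold higher under treatment, and no gene that flanks that cluster did. Of 18 noncoding RNAs of the clusters, 10 passed a mean of 1 CPM, and 3 were at least 1.5-fold higher and 6 lower in RAC1i than in DMSO, beside 23.8% higher and 39.8% lower over all genes. The 3 higher ones all lie in HOXC, had under 1 CPM in DMSO and passed the minimum through the treated libraries, so their count is a description. HOXC13-AS stood at 0.980, 8.41 and 8.78 CPM in DMSO, RAC1i and Combo (ratio 8.58 (7.40 to 9.99)), HOTAIR, which overlaps the start of HOXC11 on the opposite strand and is known for binding Polycomb proteins, at 0.392, 3.32 and 2.30 CPM in DMSO, RAC1i and Combo (ratio 8.47 (6.71 to 10.8)), and HOXC-AS1 at 0.266, 1.52 and 1.28 CPM in DMSO, RAC1i and Combo (ratio 5.72 (4.28 to 7.79)). HOXC13-AS lies on the minus strand at chr12:53935328-53939643 and overlaps the start of HOXC13 on the opposite strand. The counts were made with the default settings of Cell Ranger, which for this kit count sense reads. The lower ones lie in the other clusters, with the largest difference in HOXA10-AS at 30.0, 7.90 and 7.63 CPM in DMSO, RAC1i and Combo, 3.79-fold lower in RAC1i. HOTAIRM1, beside HOXA2, stood at 103, 120.4 and 105 CPM in DMSO, RAC1i and Combo. Of 20 flanking genes, 14 passed, of which 0 were at least 1.5-fold higher and 8 lower in RAC1i (23.8% and 39.8% of all genes), and 1 was higher and 8 lower in Combo (22.8% and 38.3%). CALCOCO1, beside HOXC13, stood at 17.9, 3.41 and 4.59 CPM in DMSO, RAC1i and Combo, 5.24-fold lower in RAC1i, and SMUG1, beyond HOXC4, at 38.1, 10.8 and 12.4 CPM in DMSO, RAC1i and Combo, 3.54-fold lower. CBX5 and HNRNPA1, further along on the same side, had ratios of 0.804 and 1.27. Among the 14 flanking genes that passed the minimum, the largest ratios were those of SNX11 near HOXB, 1.35 for RAC1i and 1.61 for Combo.

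**Figure D3:**
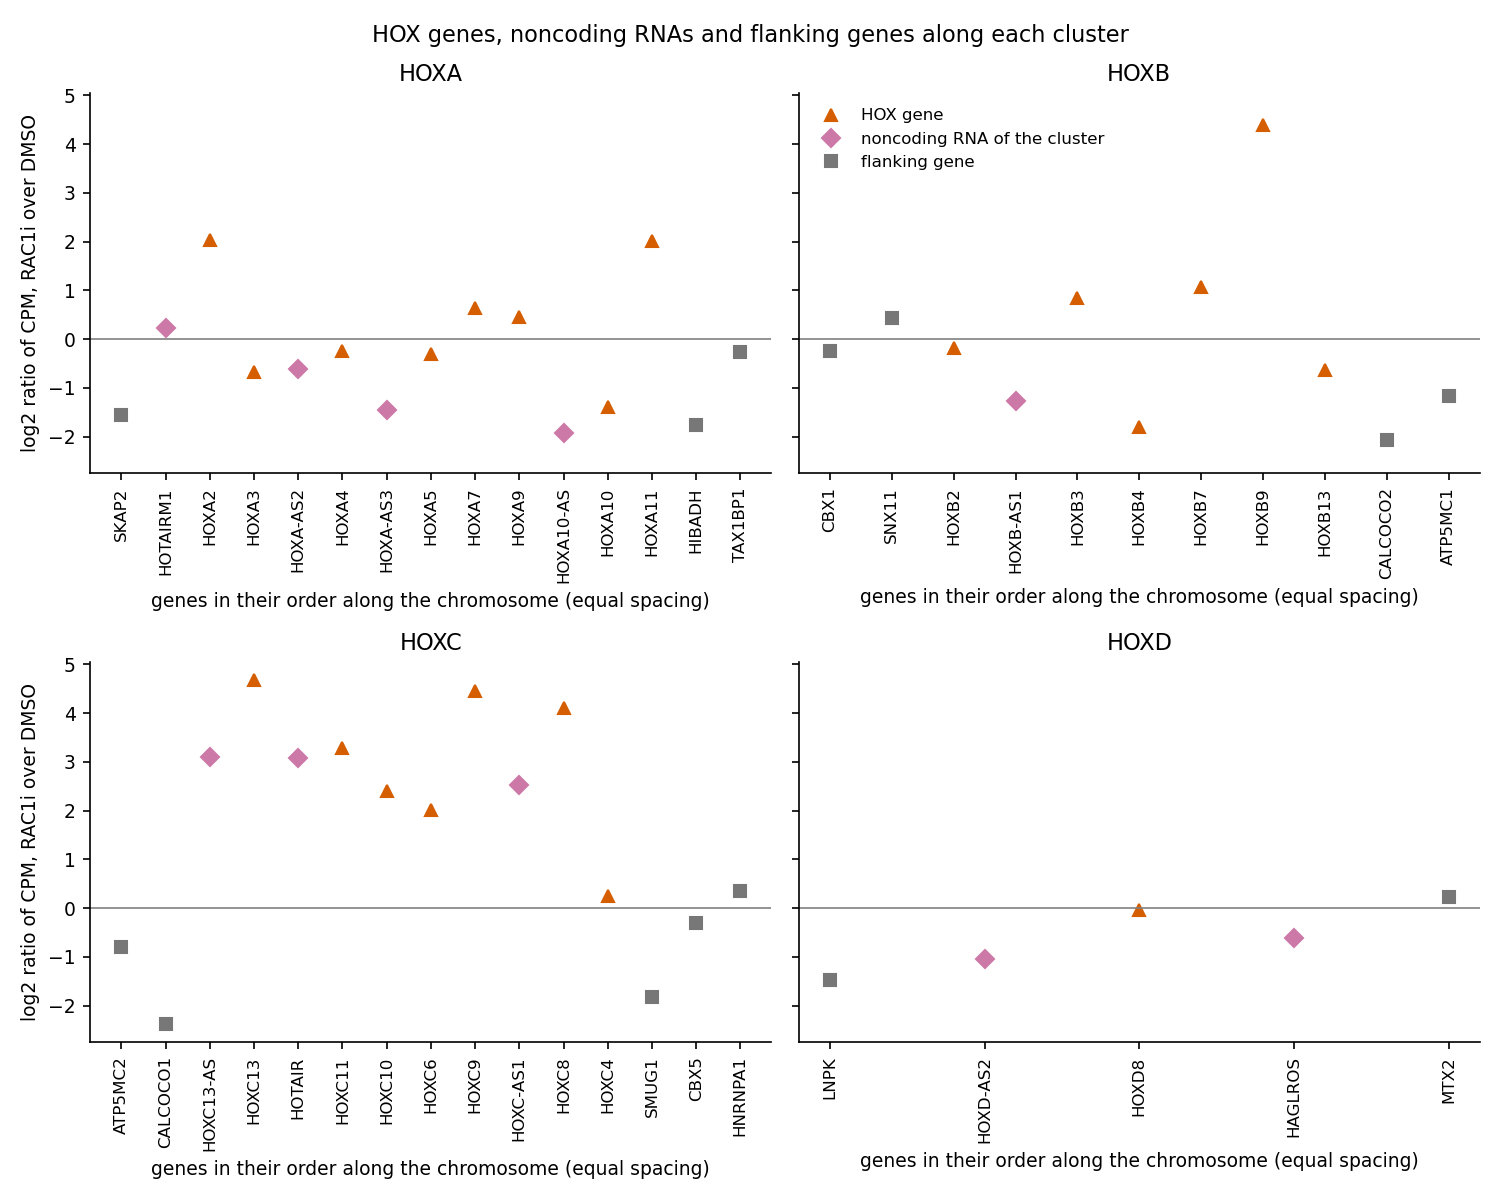
Log2 ratio of CPM, RAC1i over DMSO, for HOX genes, cluster noncoding RNAs and flanking genes with a mean of at least 1 CPM, in their order along the chromosome and equally spaced, with 1 panel per cluster. In the HOXC panel the genes from HOXC13-AS to HOXC8 lie at 2.02 or above, HOXC4 lies at 0.25, and the neighbours CALCOCO1 and SMUG1 lie below −1.

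HOXC transcripts were found in a larger share of treated than of DMSO cells at each depth compared. To compare cells at 1 depth, 5000 UMIs were drawn from every cell, which left 6725 DMSO, 9200 RAC1i and 7354 Combo cells and dropped 806, 1015 and 885. A HOXC UMI was then present in 8.28% (7.63 to 8.97) of cells in DMSO, 58.9% (57.8 to 59.9) in RAC1i and 52.6% (51.4 to 53.7) in Combo. Before thinning the shares were 32.5%, 86.7% and 84.6%, and at 2500 UMIs they were 4.33%, 39.4% and 33.8%. HOXC13 alone was present in 1.34%, 31.0% and 22.6% of thinned cells, HOXC9 in 1.03%, 20.7% and 17.2%, and HOXC8 in 0.788%, 15.2% and 14.4%. For contrast, HOXA5 was present in 35.6%, 29.3% and 23.8%, and HOXA2 in 5.49%, 21.8% and 16.6%. No cell type that lacks these genes was in the cultures, so the share that free RNA alone would give could not be measured.

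The higher HOXC level was spread over many cells. If every cell carried the mean HOXC level, 8.44%, 66.1% and 57.4% of thinned DMSO, RAC1i and Combo cells would hold a HOXC UMI, against the measured 8.28%, 58.9% and 52.6%. The variance over the mean of HOXC UMIs per thinned cell was 1.04, 1.495 and 1.33, where 1 is the value of pure sampling, so treated cells differed somewhat in HOXC level. The means were 0.0882, 1.08 and 0.853 UMIs in DMSO, RAC1i and Combo. Both this measure and the gap between expected and measured shares depend on the mean. They therefore do not show that treated cells differed more among themselves than DMSO cells did. At least 3 HOXC UMIs were held by 0.0149% of thinned cells in DMSO, 12.3% in RAC1i and 7.68% in Combo. Before thinning, the 1% of cells with the most HOXC UMIs held 10.0% of them in DMSO, 5.61% in RAC1i and 5.85% in Combo, and the highest single cell held 20, 46 and 46 HOXC UMIs.

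**Figure D4:**
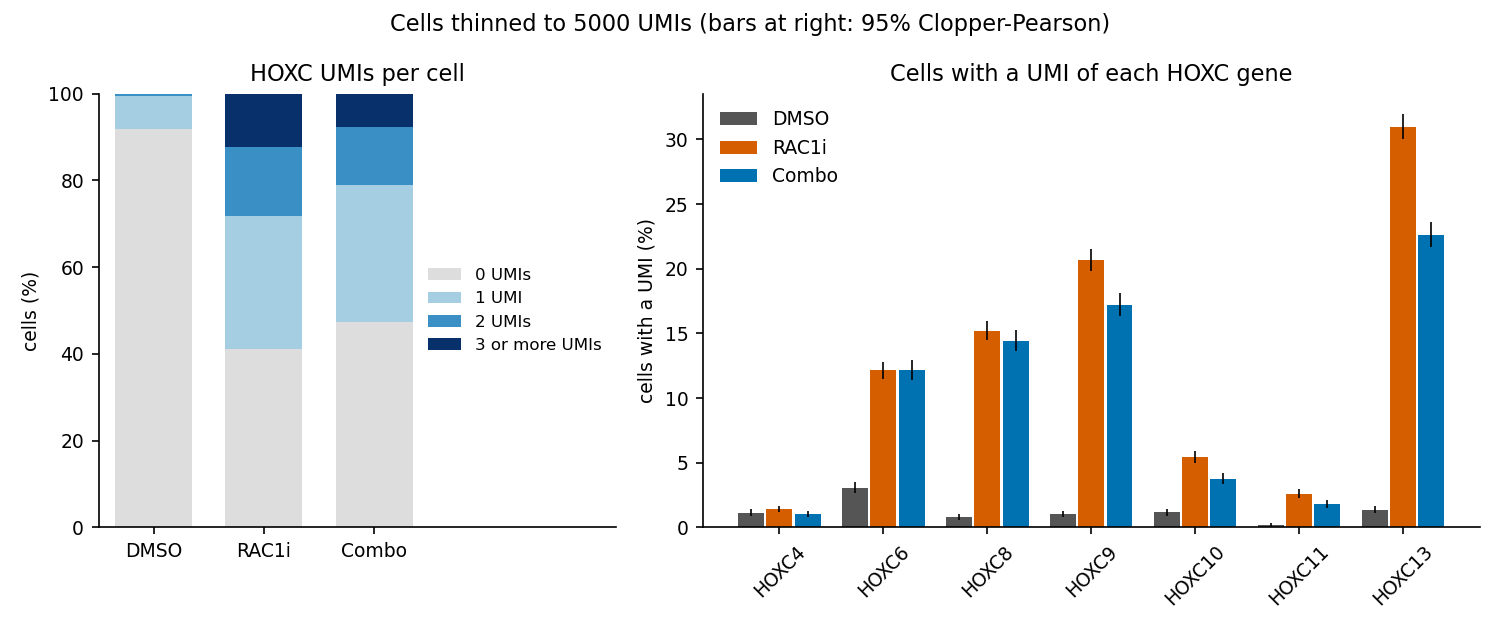
Share of thinned cells (5000 UMIs drawn from each) by their number of HOXC UMIs, as stacked bars in percent for DMSO, RAC1i and Combo, and at right the percent of thinned cells with a UMI of each HOXC gene that had a mean of at least 1 CPM, with Clopper-Pearson 95% intervals. The part with at least 1 HOXC UMI makes up 8.28% in DMSO, 58.9% in RAC1i and 52.6% in Combo.

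Several HOX genes were seen in the same cell more often under treatment. The mean number of HOX genes with a UMI per thinned cell was 1.41 for DMSO, 2.44 for RAC1i and 2.14 for Combo, and the share of cells with at least 2 HOXC genes was 0.416%, 22.8% and 16.9%. Cells with both a HOXA and a HOXC gene made up 5.93%, 41.2% and 34.2%. These values rise with the share of cells that hold a HOXC UMI, so they do not show that HOX genes go together within cells. Pairs were compared where independent detection would give at least 20 cells with both genes, which left no pair of HOXC genes in DMSO. Pairs of HOXC genes shared cells slightly more often than independent detection would give, with a median ratio of observed to expected of 1.31 over 16 pairs in RAC1i and 1.24 over 12 in Combo. Pairs of HOXA genes did so to a similar degree, with medians of 1.22 over 25 pairs in RAC1i and 1.25 over 21 in Combo. In DMSO the median for pairs of HOXA genes was 1.09 over 21 pairs. Pairs of a HOXA and a HOXC gene had medians of 1.11 in RAC1i and 1.10 in Combo. The correlations across cells were weak, at most 0.139 for a pair of HOXC genes and 0.180 for a pair of HOXA genes. The pairs share cells and libraries, so they are a description only.

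HOX ratios to DMSO depended on cell depth, and for most genes they were largest in shallow cells. With the cells of each library cut into 3 equal parts by UMIs per cell, HOXC stood at 15.9, 17.5 and 18.8 CPM from the shallowest to the deepest part in DMSO. It stood at 258, 205 and 187 CPM in RAC1i and at 206, 166 and 159 CPM in Combo. Every part of the treated libraries lay above every part of DMSO. The ratio of RAC1i to DMSO, from the shallowest to the deepest part, was 16.2, 11.7 and 9.94 for HOXC, 1.51, 1.01 and 0.966 for HOXA, 1.69, 1.56 and 1.52 for HOXB and 1.73, 1.24 and 0.980 for HOXD, so HOXA was near its DMSO level in the middle and deepest parts and above it in the shallowest. HOXC13 changed least with depth among the HOXC genes, at 26.0, 26.9 and 24.9, whereas HOXC8 stood at 36.9, 17.2 and 15.1 and HOXC4 at 1.75, 1.26 and 1.07. HOXA2 had ratios of 7.17, 4.31 and 3.43 and HOXB3 of 2.84, 1.85 and 1.59. HOXB9 had ratios of 78.0 (26.4 to 380.4), 35.2 (20.8 to 64.8) and 12.2 (8.87 to 17.1), of which the first rests on 3 UMIs in DMSO. HOXA5 turned in direction, with 1.26 (1.19 to 1.33) in the shallowest part and 0.773 and 0.739 in the others. HOXA11 and HOXA7 went the other way, with 2.53, 4.11 and 4.34 and 1.25, 1.42 and 1.66. HOXA10, HOXB2 and HOXB13 also had their smallest RAC1i ratios in the shallowest part, at 0.298, 0.645 and 0.503. In the deepest part these were 0.397, 0.936 and 0.754. For Combo over DMSO, from shallow to deep, the HOXB sum had 1.64, 1.62 and 1.76 and HOXB7 had 2.21, 2.39 and 2.62. The part of depth in the HOX levels was not tested.

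Genes that work with HOX proteins or act on the clusters were also compared. Among 11 TALE homeodomain proteins, the partners of HOX proteins on DNA, 10 passed a mean of 1 CPM, 2 were at least 1.5-fold higher in RAC1i (23.8% of all genes) and 3 lower (39.8%), and their median log2 ratio was −0.09. TGIF2 stood at 24.4, 51.6 and 40.4 CPM in DMSO, RAC1i and Combo, PBX3 at 8.49, 15.7 and 15.8 CPM, and MEIS1 at 13.5, 5.15 and 3.84 CPM. MEIS1 was 2.61-fold lower in RAC1i, whereas PBX3 had a ratio of 1.85 (1.75 to 1.96).

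Of 11 genes of Polycomb complex PRC2, 1 was at least 1.5-fold higher in RAC1i and 3 were lower, where 23.8% and 39.8% of all genes were. EZH2, the target of EZH2i, stood at 32.1, 12.4 and 15.2 CPM in DMSO, RAC1i and Combo, and its paralog EZH1 at 7.16, 2.18 and 3.01 CPM, 2.58-fold and 3.29-fold lower in RAC1i. AEBP2, an accessory subunit, had a ratio of 1.73 (1.66 to 1.80). Of 12 genes of PRC1, 4 were higher and 3 lower against the same shares, with BMI1 at 23.0, 61.5 and 50.8 CPM in DMSO, RAC1i and Combo (ratio 2.67) and PHC1 at 9.86, 4.19 and 4.15 CPM (2.35-fold lower). Of 11 trithorax and H3K27 demethylase genes, 3 were higher and 3 lower against these shares, with the methyltransferase KMT2B at 29.9, 71.1 and 72.9 CPM in DMSO, RAC1i and Combo (ratio 2.38) and ASH2L at 12.0, 5.88 and 5.68 CPM (2.05-fold lower). The medians of the log2 ratios were −0.33 for PRC2, −0.19 for PRC1 and 0.36 for the trithorax list, against −0.26 over all genes. In each of these 3 lists genes stood on both sides.

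Of 15 retinoid pathway genes, 10 passed, 5 were at least 1.5-fold higher in RAC1i (23.8% of all genes) and 3 lower (39.8%). CYP26A1, which breaks down retinoic acid and is one of its targets, stood at 0.296, 2.96 and 1.59 CPM in DMSO, RAC1i and Combo (ratio 9.98 (7.64 to 13.2) for RAC1i), so it passed the minimum through the treated libraries, and the receptor gene RARA at 6.31, 31.4 and 29.8 CPM (ratio 4.97 (4.68 to 5.28)). ALDH1A1, which makes retinoic acid, stood at 19.7, 2.32 and 1.90 CPM in DMSO, RAC1i and Combo, 8.48-fold lower in RAC1i. Between Combo and RAC1i, CYP26A1 was the single gene above the minimum, over all of these lists and the noncoding and flanking genes, past 1.5-fold, 1.86-fold lower in Combo. None of the 3 CDX genes, which act on posterior HOX genes in the embryo, passed a mean of 1 CPM. Together they stood at 0.00502, 0.192 and 0.193 CPM in DMSO, RAC1i and Combo. These sums were higher in both treated libraries but rest on few UMIs. Whether any of these genes has a part in the HOX levels was not tested.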

How the data were processed

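OVCAR3 cells were profiled in 3 libraries, DMSO, RAC1i and Combo, 1 per group as the labels give it. The authors deposited whole-number UMI counts per gene and barcode, made with Cell Ranger 4.0.0 at its defaults on GRCh38 per the labels and the study's methods, with no normalization and no later filter on cells. Barcodes counted as cells if they had over 1000 genes, if mitochondrial UMIs made up no more than 20%, and if complexity, log10 genes over log10 UMIs, was over 0.8. Doublets were not removed. UMIs were summed per library and scaled to CPM with Python 3.11.15, NumPy and SciPy 1.17.1. Intervals at 95% were exact Poisson for a level, exact conditional for a ratio and Clopper-Pearson for a share. Genes entered counts at a mean of 1 CPM and a limit of 1.5-fold. Scalings from edgeR 4.0.16 (TMM) and DESeq2 1.42.0 (size factors), other limits on cells, genes and fold, the mean over cells and thinning to 5000 or 2500 UMIs were alternatives. Coordinates and exon overlaps come from GENCODE 44 and promoters from RefSeq, both GRCh38, and the authors' annotation release may differ. The interval of the ratio was tested on simulated Poisson counts. The interval itself assumes such counts, so that test does not show how well it holds for these cells.

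All HOX genes entered the sums and counts, and those with a mean of at least 1 CPM were described. Some genes are not reported here by name and are not plotted. From each list of other genes the counts in each direction and the largest rise and fall were taken where the gene could be named, and further names, such as PBX3, EZH2, BMI1, RARA, HOTAIR, HOXC-AS1, HOTAIRM1, SMUG1, CBX5 and HNRNPA1, were chosen after their values were seen. The members, lists and tests were chosen with earlier results of these data known.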

Additional observations from a re-analysis of the deposited data

Results flagged for a closer look

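The limits on cells removed 2540 barcodes from DMSO, 1557 from RAC1i and 1518 from Combo, and the values in the report do not use them. They held 8285672, 19891175 and 27661804 UMIs in that order, so that 96.0%, 92.2% and 88.5% of UMIs were kept. The removed barcodes thus differed in depth between the libraries. These barcodes enter 1 alternative, in which every deposited barcode is kept. The summed HOXC level in these removed barcodes was 11.9 CPM (9.71 to 14.5) in DMSO, 213 CPM (206 to 219) in RAC1i and 169 CPM (164 to 174) in Combo. The 2 treated values are listed here because they lie above the level of the control library in data that the reported comparisons left out. They rest on 99, 4227 and 4683 HOXC UMIs.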

How the results depend on the processing

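The counts against DMSO at 1.5-fold were 13 higher and 4 lower in both treated libraries. Listed here are only counts that moved by more than 1.5-fold or away from 0, and smaller changes also occurred. With TMM scaling, for example, HOXB13 left the lower genes in RAC1i and HOXA5 those in Combo. With a total without mitochondrial genes HOXA7 left the higher genes in RAC1i. With no minimum CPM 24 HOX genes were higher in RAC1i (39.6% of all genes), counting HOXD12 with 1 UMI against 0 in DMSO, and 24 in Combo (38%). Fewer were lower in RAC1i with DESeq2 size factors (2, against 36% of all genes), a mean of at least 5 CPM (1, 35.8%), a 2-fold limit (2, 27.6%) and a 4-fold limit (0, 8.35%), and fewer in Combo with a mean of at least 5 CPM (2, 34%), a 2-fold limit (2, 25.9%) and a 4-fold limit (0, 7.12%), where 6 were higher (5.73%). Between Combo and RAC1i, 1 gene (HOXC11) was lower by the mean over cells (1.09% of all genes) and 1 (HOXB13) was higher after thinning to 5000 UMIs (2.06%). With no minimum 1 gene was lower (15.6%), HOXD12, with 0 UMIs in Combo against 1 in RAC1i.

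The HOXC log2 ratio for RAC1i, 3.47 as reported, was 3.55 with TMM scaling, 3.59 with DESeq2 size factors, 3.41 with a total without mitochondrial genes, 3.68 by the mean over cells, 3.62 after thinning to 5000 UMIs and 3.63 after thinning to 2500 UMIs. The HOXC log2 ratio for Combo, 3.20 as reported, was 3.29 with TMM scaling, 3.32 with DESeq2 size factors, 3.13 with a total without mitochondrial genes, 3.39 by the mean over cells, 3.27 after thinning to 5000 UMIs and 3.34 after thinning to 2500 UMIs. The HOXB log2 ratio for RAC1i, 0.64 as reported, was 0.72 with TMM scaling, 0.75 with DESeq2 size factors, 0.57 with a total without mitochondrial genes, 0.73 by the mean over cells and 0.75 after thinning to 2500 UMIs. The HOXB log2 ratio for Combo, 0.77 as reported, was 0.86 with TMM scaling, 0.88 with DESeq2 size factors and 0.70 with a total without mitochondrial genes. The HOXA log2 ratio for RAC1i, 0.05 as reported, was −0.0033 in cells of at least 10000 UMIs, 0.13 with TMM scaling, 0.17 with DESeq2 size factors, −0.012 with a total without mitochondrial genes, 0.28 by the mean over cells, 0.16 after thinning to 5000 UMIs and 0.24 after thinning to 2500 UMIs. The HOXA log2 ratio for Combo, −0.17 as reported, was −0.21 in cells of at least 10000 UMIs, −0.084 with TMM scaling, −0.056 with DESeq2 size factors, −0.24 with a total without mitochondrial genes, −0.031 by the mean over cells, −0.12 after thinning to 5000 UMIs and −0.059 after thinning to 2500 UMIs. The HOXD log2 ratio for RAC1i, 0.19 as reported, was 0.53 by the mean over cells and 0.39 after thinning to 2500 UMIs. The HOXD log2 ratio for Combo, 0.27 as reported, was 0.49 by the mean over cells. The sign of HOXA in RAC1i thus turned under 2 of these settings, so its sum has no direction. DESeq2 size factors raised every log2 ratio to DMSO by 0.11 for RAC1i and 0.12 for Combo, and TMM by 0.08 and 0.09. The thinned shares of cells with a HOXC UMI were 4.33%, 39.4% and 33.8% at 2500 UMIs and 32.5%, 86.7% and 84.6% unthinned, in the order DMSO, RAC1i and Combo.

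Of the values of single genes called past 1.5-fold against DMSO, 153 of 153 under the alternatives kept their sign in RAC1i and 153 of 153 in Combo, and 144 and 145 kept their side of the limit. HOXA3, HOXA5, HOXA7, HOXB3 and HOXB13, all close to 1.5-fold, crossed it under at least 1 setting, and HOXA9 and HOXC4, which lay inside it, passed it under others. The 4-fold limit was chosen after seeing the data. The causes of these shifts were not tested. No paired analysis was possible because each group is 1 library. Leaving out a replicate was not possible for the same reason, so no value shows the spread between cultures. Depth limits the genes under 1 CPM, whose levels rest on few UMIs.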

Other observations

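Among thinned cells, HOXC was seen less often in treated cells that held a PAX8 UMI. A HOXC UMI was present in 46.3% (43.9 to 48.7) of RAC1i cells with PAX8 and 61.7% (60.6 to 62.8) of those without it, and in 42.9% (40.2 to 45.6) and 54.7% (53.4 to 55.9) of Combo cells. In DMSO, where PAX8 was found in most cells, the shares were 8.30% (7.56 to 9.08) and 8.22% (6.90 to 9.71). With OVGP1, the oviduct glycoprotein gene, the order was the other way, with HOXC in 66.9% (62.4 to 71.2) of RAC1i cells with OVGP1 and 58.4% (57.4 to 59.5) of those without it, and in 60.1% (54.2 to 65.9) and 52.3% (51.1 to 53.5) of Combo cells. The cells of a library are 1 culture, so these intervals cover counting error only and the genes were chosen with earlier results known.

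HOXC differed little with proliferation genes. It was present in 57.7% (55.8 to 59.5) of RAC1i cells with a UMI of MKI67 or TOP2A and in 59.4% (58.2 to 60.6) of those without, and in 54.3% (52.2 to 56.3) and 51.8% (50.5 to 53.2) of Combo cells. With the chemokine gene CXCL1 it was present in 62.6% (61.3 to 63.9) of RAC1i cells and without it in 53.8% (52.2 to 55.4), against 53.8% (52.1 to 55.6) and 51.6% (50.1 to 53.1) in Combo. With the metallothionein gene MT2A it was present in 59.2% (58.1 to 60.2) of RAC1i cells and without it in 50.5% (44.9 to 56.0), and in 52.8% (51.7 to 54.0) and 39.2% (30.4 to 48.5) of Combo cells. Cells without MT2A numbered 325 in RAC1i and 120 in Combo. With HOXA5 it was present in 63.8% (61.9 to 65.6) of RAC1i cells and without it in 56.8% (55.6 to 58.0), and in 55.9% (53.6 to 58.3) and 51.6% (50.2 to 52.9) of Combo cells. In cells that share a barcode with another library, HOXC stood at 14.4 CPM in DMSO, 179.7 in RAC1i and 141 in Combo.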
